A study of Mus musculus with 12 samples.

Results

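Mast cells and basophils make a set of characteristic products, and 10 genes of this set were followed over the 12 arrays: Prss34, Mcpt8, Cpa3, Tpsb2, Tpsab1, Cma1, Fcer1a, Ms4a2, Il1rl1 and Hdc. They were chosen by symbol as known mast cell and basophil genes, from probe sets annotated to that symbol alone. The choice was made with earlier results of these data known, so counts set against all probe sets may not be independent of the data. Of the 10, 9 had a probe set, 1 each, among the 19938 genes with a probe set of a single symbol. No probe set carried the symbol Il1rl1, the IL-33 receptor gene, so it was not analysed here.

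The arrays held RNA from marrow of adult mice of the strain given as C57/BL6/C3H, 3 biological replicates for each of 4 retroviral constructs. MIG is the empty vector and the control. CALM-AF10 is a leukaemia fusion, CALM-AF10 ΔOM-LZ (here ΔOM-LZ) is that fusion without the region named OM-LZ, the stretch of AF10 known to bind the histone methyltransferase DOT1L, and the fusion of CALM residues 400 to 648 with AF10 residues 677 to 758 is here called the minimal fusion. All groups, MIG included, came from mice given 5-fluorouracil (30 µg/µl, 100 µl per 20 g) 4 days earlier. Their marrow was prestimulated for 48 h, transduced on GFP+E86 producer cells that had received 40 Gy, with cytokines and 5 µg/ml protamine sulfate, and sorted on GFP before RNA extraction at 96 h. Each sample is therefore a mixed culture of transduced marrow cells and not a purified cell type. The labels call the replicates biological and do not say what a replicate number shares, so p-values measure the spread between these samples. Values are log2 intensities, so a difference of 1 is a doubling, and n = 3 for every mean and standard deviation (SD).

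Mast cells and basophils carry the high-affinity IgE receptor FcεRI. When antigen cross-links IgE on it, they release preformed granules of proteases and histamine and make lipid mediators and cytokines. In marrow cultures with cytokines, basophils and mast cells arise from granulocyte and monocyte progenitors or from progenitors shared with megakaryocytes and erythroid cells, under GATA factors. Mcpt8 and Prss34 are proteases used as markers of mouse basophils. Tpsb2, Tpsab1 and Cma1 encode tryptases and a chymase typical of connective tissue mast cells, while Cpa3, Fcer1a, Ms4a2 and Hdc serve both cell types.

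Array-to-array spread was large for most of the 9 genes. Fcer1a encodes the IgE-binding alpha chain of FcεRI. Its log2 values were 10.57, 10.81 and 12.75 on MIG replicates 1, 2 and 3, 11.49, 9.62 and 10.50 on those of CALM-AF10, 12.20, 10.55 and 10.66 on those of ΔOM-LZ and 10.17, 8.55 and 8.86 on those of the minimal fusion. Minimal fusion replicates 2 and 3 were the lowest arrays, and MIG replicate 3 and ΔOM-LZ replicate 1 were the highest. The minimal fusion lay below every MIG and ΔOM-LZ array and overlapped CALM-AF10. Ms4a2, the beta chain that amplifies the receptor's signal, had values of 9.19, 9.34 and 11.55 on MIG replicates 1, 2 and 3, 9.94, 8.51 and 8.95 on those of CALM-AF10, 11.01, 9.65 and 9.56 on those of ΔOM-LZ and 9.15, 8.66 and 8.98 on those of the minimal fusion. Here MIG replicate 3 was again the highest array, followed by ΔOM-LZ replicate 1, and the minimal fusion lay below every MIG and ΔOM-LZ array while overlapping CALM-AF10.

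The tryptase and chymase genes had the widest ranges. Tpsb2, encoding the tryptase mMCP-6, had values of 7.75, 8.97 and 11.85 on MIG replicates 1, 2 and 3, 10.80, 7.06 and 8.47 on those of CALM-AF10, 10.66, 7.41 and 8.03 on those of ΔOM-LZ and 7.91, 6.29 and 6.84 on those of the minimal fusion. Tpsab1, encoding the tryptase mMCP-7, had values of 7.59, 8.997 and 12.63 on MIG replicates 1, 2 and 3, 11.65, 7.71 and 9.03 on those of CALM-AF10, 10.71, 7.81 and 7.97 on those of ΔOM-LZ and 6.80, 6.48 and 6.51 on those of the minimal fusion. For both, MIG replicate 3, CALM-AF10 replicate 1 and ΔOM-LZ replicate 1 stood far above the other arrays, and the minimal fusion arrays of Tpsab1 lay close together below all others. Those minimal fusion values of Tpsab1 were near the array medians (6.581 to 6.686), with no detection call to separate them from background. In RefSeq for the C57BL/6J assembly Tpsab1 is annotated as a transcribed pseudogene, and Tpsb2 and Tpsab1 are close relatives whose probes could share signal, which was not tested. Cma1, encoding the chymase mMCP-5, had values of 6.16, 6.69 and 10.23 on MIG replicates 1, 2 and 3, 8.47, 5.94 and 6.17 on those of CALM-AF10, 8.19, 6.18 and 6.12 on those of ΔOM-LZ and 5.77, 5.64 and 5.87 on those of the minimal fusion. The same 3 arrays were high, and for 9 arrays the values lay between 5.64 and 6.69 with no detection call to separate them from background.

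Cpa3, encoding the carboxypeptidase that trims peptides in mast cell granules, had the smallest range over the 12 arrays. Its values were 12.70, 13.00 and 13.24 on MIG replicates 1, 2 and 3, 13.07, 12.42 and 12.91 on those of CALM-AF10, 13.21, 12.92 and 12.96 on those of ΔOM-LZ and 12.64, 12.01 and 12.26 on those of the minimal fusion. Every MIG and ΔOM-LZ array stood above the highest minimal fusion array, and the CALM-AF10 arrays overlapped all groups. Hdc makes histamine from histidine, and its values were 10.14, 10.40 and 10.48 on MIG replicates 1, 2 and 3, 10.77, 9.86 and 9.25 on those of CALM-AF10, 12.10, 10.60 and 9.94 on those of ΔOM-LZ and 9.74, 9.21 and 9.72 on those of the minimal fusion. ΔOM-LZ replicate 1 was the highest array, and the minimal fusion lay below every MIG and ΔOM-LZ array and overlapped CALM-AF10.

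Of the basophil proteases, Prss34 followed another order of constructs, while the Mcpt8 means of CALM-AF10 and the minimal fusion were nearly equal. Prss34 had values of 8.90, 9.44 and 10.44 on MIG replicates 1, 2 and 3, 9.68, 8.999 and 8.66 on those of CALM-AF10, 11.37, 10.70 and 10.24 on those of ΔOM-LZ and 10.62, 9.54 and 10.26 on those of the minimal fusion. All ΔOM-LZ arrays lay above all CALM-AF10 arrays, and the MIG and minimal fusion arrays overlapped both. Mcpt8 had values of 11.69, 11.69 and 12.25 on MIG replicates 1, 2 and 3, 11.93, 11.55 and 10.95 on those of CALM-AF10, 12.89, 12.14 and 11.74 on those of ΔOM-LZ and 11.84, 11.17 and 11.53 on those of the minimal fusion. For Mcpt8 every group overlapped every other, with ΔOM-LZ replicate 1 highest and CALM-AF10 replicate 3 lowest. Group means of Prss34 were 9.59 (SD 0.79) for MIG, 9.11 (SD 0.52) for CALM-AF10, 10.77 (SD 0.57) for ΔOM-LZ and 10.14 (SD 0.55) for the minimal fusion. Those of Mcpt8 were 11.88 (SD 0.32), 11.48 (SD 0.49), 12.26 (SD 0.59) and 11.51 (SD 0.33) in the same order.

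**Figure D1:**
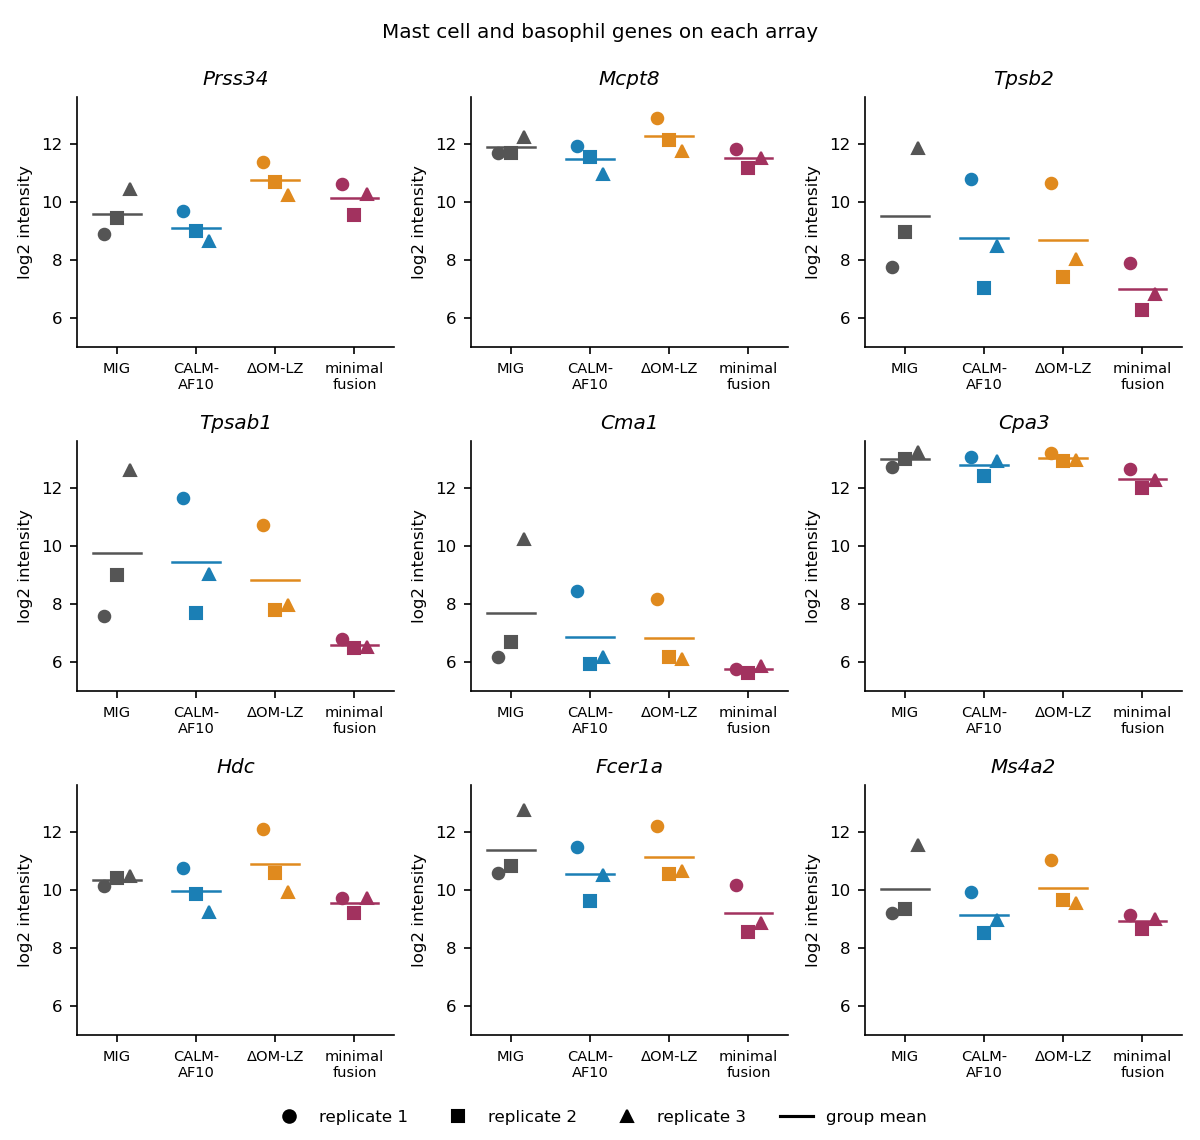
Log2 intensity on each of the 12 arrays (points, 3 per construct) for the 9 measured genes, 1 panel per gene, with the group mean as a bar. The widest spread within a construct is that of Tpsab1 among MIG arrays, from 7.59 to 12.63, and the narrowest is that of Cma1 among minimal fusion arrays, from 5.64 to 5.87.

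Over the 12 arrays the 9 genes spanned 1.23 log2 units for Cpa3 up to 6.15 for Tpsab1, a 71.1-fold span. Every one of the 9 spanned at least 1 log2 unit, against 17.5% of all named probe sets, and 7 spanned at least 2, against 3.43%. The highest array of 12 was MIG replicate 3 for 6 genes (10.3% of all probe sets) and ΔOM-LZ replicate 1 for Prss34, Mcpt8 and Hdc (7.11%). Minimal fusion replicate 2 was the lowest for 6 genes (10.1%). Among the 3 arrays of a construct, all 9 genes were highest on MIG replicate 3 (24.5% of all probe sets), on CALM-AF10 replicate 1 (27.5%) and on ΔOM-LZ replicate 1 (31.6%). In the minimal fusion 8 of 9 were highest on replicate 1 (37%) and all 9 lowest on replicate 2 (40.2%).

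Averaged over the 9 genes after centring each on its mean over the 12 arrays, the level on MIG replicates 1, 2 and 3 was −0.44, 0.072 and 1.86. It was 1.01, −0.78 and −0.42 on CALM-AF10, 1.52, −0.08 and −0.16 on ΔOM-LZ and −0.45, −1.24 and −0.87 on the minimal fusion. Within MIG and within ΔOM-LZ the spread exceeded the distance between their means, and each construct other than the minimal fusion had 1 array that stood apart. The share of a gene's variance that lay between constructs ran from 25.5% for Cma1 to 61.7% for Cpa3, with 60.3% for Prss34 and a median of 22.2% over all genes.

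The 9 genes varied together across arrays. Pearson r over the 12 arrays, a description with no test, was above 0 for all 36 pairs of genes, with a median of 0.73. The closest pair was Tpsb2 and Tpsab1 (r = 0.97), and the most distant was Prss34 and Tpsab1 (r = 0.19). Cpa3 and Fcer1a correlated at 0.94 and Mcpt8 and Hdc at 0.93. Against the mean of the other members, r was 0.95 for Tpsb2 and Ms4a2 and 0.41 for Prss34, the gene least like the rest. All pairs share the same libraries and the array scale, and MIG replicate 3 weighs in each, yet with it left out the median r was 0.78.

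**Figure D2:**
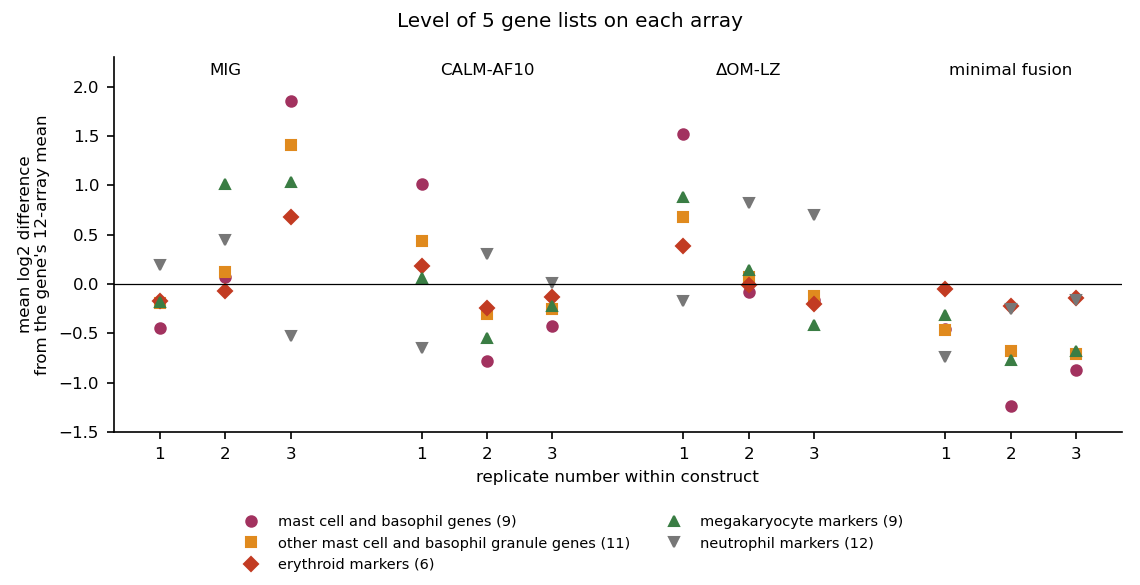
Mean log2 level of the members, other granule genes, and erythroid, megakaryocyte and neutrophil markers on each array, each gene centred on its 12-array mean. The member level reaches 1.86 on MIG replicate 3 and is negative on all 3 minimal fusion arrays.

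As the genes varied together, their upstream sequences are shown for 4 of them: Prss34, Cpa3 and Fcer1a carry a match to the GATA-factor motif and Mcpt8, the other basophil protease, has none. Each run is the 250 bases before the RefSeq start site (GRCm38.p6), 5′ to 3′ on the gene's strand, with motif matches in capitals.
Prss34 (chr17:25298144-25298393, forward strand): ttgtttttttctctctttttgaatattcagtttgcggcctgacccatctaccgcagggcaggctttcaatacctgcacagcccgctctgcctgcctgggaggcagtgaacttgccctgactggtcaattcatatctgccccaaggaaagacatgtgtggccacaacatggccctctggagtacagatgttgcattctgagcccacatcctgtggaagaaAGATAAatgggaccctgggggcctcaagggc
Cpa3 (chr3:20242182-20242431, reverse strand): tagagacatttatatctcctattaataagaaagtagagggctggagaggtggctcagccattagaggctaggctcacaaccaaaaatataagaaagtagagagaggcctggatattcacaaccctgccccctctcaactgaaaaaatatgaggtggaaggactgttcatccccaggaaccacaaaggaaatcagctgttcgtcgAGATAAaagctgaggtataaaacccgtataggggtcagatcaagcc
Fcer1a (chr1:173227230-173227479, reverse strand): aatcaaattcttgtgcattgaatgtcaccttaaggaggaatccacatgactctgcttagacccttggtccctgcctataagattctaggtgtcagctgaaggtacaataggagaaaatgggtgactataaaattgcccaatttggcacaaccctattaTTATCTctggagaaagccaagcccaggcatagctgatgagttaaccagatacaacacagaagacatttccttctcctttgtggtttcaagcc
Mcpt8 (chr14:56085198-56085447, reverse strand): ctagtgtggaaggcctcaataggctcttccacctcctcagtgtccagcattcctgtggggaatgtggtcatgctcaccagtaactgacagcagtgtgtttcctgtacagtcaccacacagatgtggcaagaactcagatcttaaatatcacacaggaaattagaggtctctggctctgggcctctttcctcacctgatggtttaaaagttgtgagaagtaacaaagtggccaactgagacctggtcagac
The forms searched, on either strand, were AGATAA and AGATAG together with TGATAA and TGATAG. The Prss34 match lies 31 to 26 bases before the start, the Cpa3 match 46 to 41 and the Fcer1a match, on the opposite strand, 92 to 87. Of 7 measured genes with a promoter entry 6 held at least 1 match (8 in all), against 26.5% of 32851 promoter windows of the same length. A STAT motif, TTCNNNGAA, was found in 0 of the 7 and in 7.02% of windows. A match is a string of letters and does not show that a factor binds there. Tpsb2 and Tpsab1 had no entry.

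The minimal fusion arrays had the lowest level of most of these genes, yet none passed the test against the MIG control. For Tpsab1 the mean was 6.598 (SD 0.18) against 9.74 (SD 2.60), a difference of −3.14 (SE 1.29, 95% interval −5.99 to −0.30), and for Fcer1a the difference was −2.19 (SE 0.70, interval −3.72 to −0.65). Tpsb2 stood at −2.51, Cma1 at −1.93, Ms4a2 at −1.09, Hdc at −0.78, Cpa3 at −0.68 (SE 0.21) and Mcpt8 at −0.37. Prss34 was the exception, with a difference of 0.55. Thus 8 of the 9 genes lay below 0 (48.8% of all probe sets did), with a median difference of −1.09 against 0.0078 over all genes. Adjusted p from limma ran from 0.482 for Cpa3 to 0.835 for Mcpt8, so 0 of 9 were called, against 8 of 23410 probe sets (0.0342%). At an unadjusted p under 0.05, 3 of the 9 (Cpa3, Tpsab1 and Fcer1a) stood lower, against 4.01% of probe sets. For 6 genes (Cpa3, Tpsab1, Cma1, Fcer1a, Ms4a2 and Hdc) no minimal fusion array overlapped MIG, against 6% of probe sets with all arrays lower. Without MIG replicate 3 the median was −0.67, with Tpsab1 at −1.70, Cma1 at −0.67 and Ms4a2 at −0.33. In bulk RNA, fewer mast cells or basophils and less RNA of these genes per cell cannot be told apart.

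CALM-AF10 and ΔOM-LZ stood nearer to MIG, and as both are set against the same MIG arrays their values are not independent. Under CALM-AF10 all 9 genes lay below 0 (49% of all probe sets), from −0.89 for Ms4a2 to −0.18 for Cpa3, with a median of −0.48. The 9 of 9 count rests on single arrays: without MIG replicate 3, Tpsb2 (0.41), Tpsab1 (1.17) and Cma1 (0.43) stood above 0, and without CALM-AF10 replicate 2, Cpa3 (0.0101), Tpsb2 (0.11) and Tpsab1 (0.60) did. The median was −0.051 without MIG replicate 3, −0.25 without CALM-AF10 replicate 3, −1.25 without MIG replicate 1 and −1.30 without CALM-AF10 replicate 1. By limma 0 of 9 were called, as were 0 of 23410 probe sets (0%), and 0 of 9 against 1231 of 23410 (5.26%) had an unadjusted p under 0.05. Under ΔOM-LZ 5 of 9 genes lay above 0 (52.3% of all probe sets) with a median of 0.049. That median turned to −0.37 without MIG replicate 1, −0.29 without MIG replicate 2 and −0.42 without ΔOM-LZ replicate 1, and was 0.53 without MIG replicate 3. Prss34 stood 1.18 higher (SE 0.44, adjusted p = 0.999 by limma). Again 0 of 9 genes and 0 of 23410 probe sets (0%) were called, with 1 of 9, Prss34, and 927 of 23410 (3.96%) at an unadjusted p under 0.05.

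**Figure D3:**
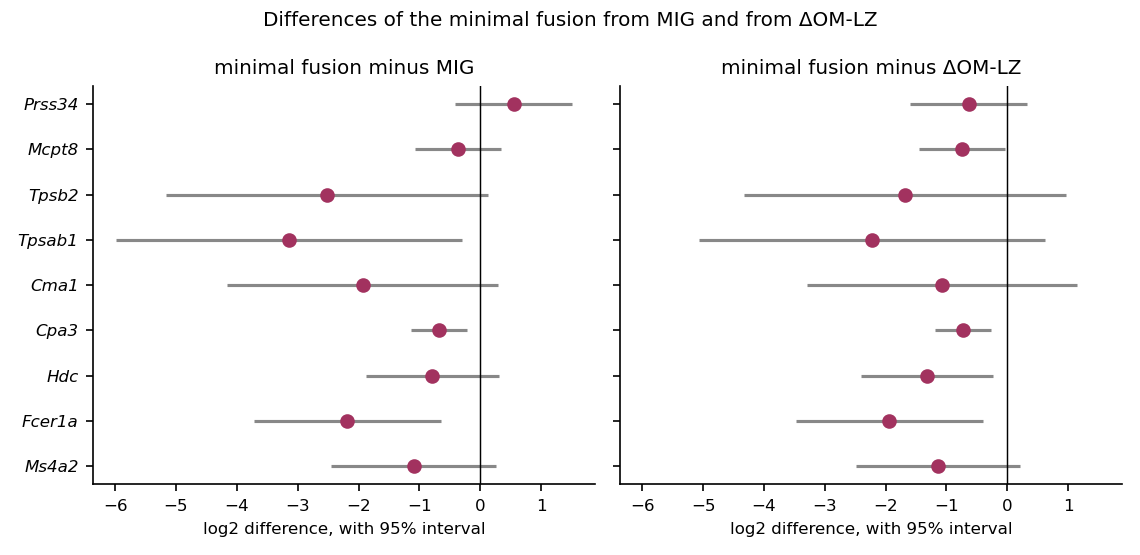
Log2 difference of the minimal fusion from MIG and from ΔOM-LZ for the 9 genes, with 95% intervals from limma. Tpsab1 has the widest interval against MIG, from −5.99 to −0.30, and Prss34 alone stands above 0 against MIG.

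Against ΔOM-LZ all 9 genes stood lower in the minimal fusion (49.8% of all probe sets), with a median of −1.14. Without ΔOM-LZ replicate 1 the median was −0.67, with Tpsab1 at −1.29, Ms4a2 at −0.67, Tpsb2 and Hdc at −0.71 each, Mcpt8 at −0.43, Cma1 at −0.39 and Prss34 at −0.33, and all 9 stayed below 0. With all arrays, Fcer1a stood at −1.94, Hdc at −1.32, Cpa3 at −0.73 and Prss34 at −0.63, and by limma 0 of 9 passed, with adjusted p of 0.773 for Cpa3, against 4 of 23410 probe sets (0.0171%). At an unadjusted p under 0.05, 4 of 9 (Mcpt8, Cpa3, Fcer1a and Hdc) stood lower, against 2.43% of probe sets. The 6 genes with no overlap between groups were those named against MIG, against 4.09% of probe sets. Relative to CALM-AF10, the minimal fusion had Prss34 1.03 higher, Cpa3 at −0.50 and Tpsab1 at −2.87, and by limma 0 of 9 genes were called against 1 of 23410 probe sets (0.00427%). At an unadjusted p under 0.05, 2 of 9 (Cpa3 and Tpsab1) stood lower, against 1.2% of probe sets, and 1 (Prss34) higher, against 0.602%. Tpsab1 and Cma1 did not overlap between these groups, 2 of 9 against 3.32% of probe sets lower on every array. For Cma1 the highest minimal fusion array (5.87) lay just below the lowest CALM-AF10 array (5.94), with no detection call to separate either from background.

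Prss34 stood lower in CALM-AF10 than in ΔOM-LZ, with no overlap of arrays, by a difference of −1.66 that was nearly the same at each replicate number: −1.68, −1.70 and −1.58 for numbers 1, 2 and 3. In the unpaired limma fit the SE was 0.44 and 0 of 9 genes were called, as were 0 of 23410 probe sets (0%), the adjusted p of Prss34 being 0.9999. Of the 9 genes 2 (Prss34 and Mcpt8) stood lower at an unadjusted p under 0.05, against 0.658% of probe sets, and 1 (Prss34) lay lower on every array, against 2.09%. A paired fit of those 6 arrays, with the replicate number as a block, gave an SE of 0.071, a 95% interval of −1.83 to −1.48 and an adjusted p of 0.031, the 1 probe set called of 23410 (0.00427%). The size of the difference is the same in both fits, as it must be with every number in both groups. The SE, the interval, the p-values and the adjusted call depend on the pairing. That pairing comes from the data: same-numbered arrays of these constructs deviated together (r of 0.72, 0.79 and 0.63 over 19938 genes). With 2 residual degrees of freedom, leaving out any 1 number ended the call (adjusted p from 0.279 to 0.360), and with all 35556 probe sets tested the adjusted p was 0.238.

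The other genes differed less evenly between CALM-AF10 and ΔOM-LZ. Mcpt8 differed by −0.97, −0.58 and −0.79 at numbers 1, 2 and 3, Ms4a2 by −1.07, −1.14 and −0.61, and Hdc by −1.33, −0.73 and −0.69. Fcer1a differed by −0.71, −0.93 and −0.16 and Cpa3 by −0.14, −0.50 and −0.05. The tryptases and chymase ran the other way or in both: Tpsab1 by 0.94, −0.10 and 1.06, Tpsb2 by 0.14, −0.35 and 0.44 and Cma1 by 0.28, −0.25 and 0.04. Prss34, Mcpt8, Ms4a2, Hdc, Fcer1a and Cpa3, 6 of the 9, stood lower in CALM-AF10 at every number, against 15.8% of probe sets. Markers of other lineages differed in the same comparison: 11 of 12 neutrophil markers lay below 0 (median −0.62), as did 9 of 9 monocyte markers (median −0.52) and 8 of 9 megakaryocyte markers (median −0.34), while 9 of 9 progenitor markers lay above 0 (median 0.36). Their part in the member differences was not tested. In the paired fit 5 genes had an unadjusted p under 0.05 and stood lower (4.38% of probe sets), and 1 (Tpsab1) stood higher (9.85%). Their adjusted p by limma was 0.031 for Prss34, 0.219 for Mcpt8 and Ms4a2, 0.229 for Hdc, 0.259 for Fcer1a and 0.329 for Tpsab1.

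**Figure D4:**
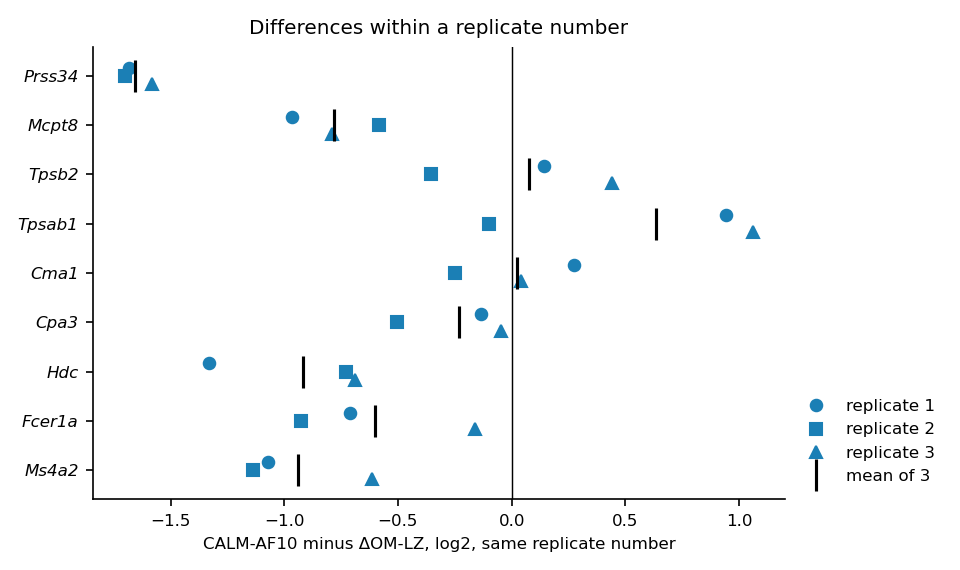
Log2 difference of CALM-AF10 from ΔOM-LZ at replicate numbers 1, 2 and 3 for each of the 9 genes. The 3 Prss34 points lie between −1.70 and −1.58, while those of Tpsab1 run from −0.10 to 1.06.

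Other genes of the pathway and granule were read from lists chosen by function, also with earlier results of these data known. In the minimal fusion against MIG, 11 of 14 other granule genes were measured and 9 lay below 0, with a median of −0.75. Mcpt2, a mucosal mast cell protease gene, stood at −3.33 and Gzmb, encoding granzyme B, at −2.27, and neither passed (limma adjusted p = 0.368 for Mcpt2). Of 16 measured FcεRI signalling genes 13 lay below 0 (median −0.36), among them Lat at −1.08, the adaptor downstream of the receptor. Surface and growth factor receptors gave 14 of 17 below 0 (median −0.42), with Cd200r3, an activating receptor of basophils and mast cells, at −2.08. Cd200r3 values were 7.95, 8.76 and 10.34 on MIG replicates 1, 2 and 3, 9.13, 6.70 and 8.09 on those of CALM-AF10, 10.48, 8.07 and 8.62 on those of ΔOM-LZ and 8.01, 6.42 and 6.39 on those of the minimal fusion. ΔOM-LZ replicate 1 and MIG replicate 3 were the highest arrays, and the minimal fusion overlapped MIG only through its replicate 1. Lipid and amine mediator enzymes gave 5 of 7, cytokines 6 of 9, transcription factors 10 of 13 and IL-33 receptor signalling genes 3 of 7 below 0, with medians of −0.24, −0.49, −0.16 and 0.02. By limma 0 of the 80 measured genes in these 7 lists passed in any of the 6 comparisons, the 80 being related genes on the same arrays. At an unadjusted p under 0.05, 16 of 80 (20%) stood below MIG in minimal fusion arrays, against 4.01% of all probe sets, and 18 of 80 (22.5%) below ΔOM-LZ, against 2.43%. In either direction, the other comparisons had 6 of 80 (7.5%) for CALM-AF10 against MIG, near the 5.26% of all probe sets. Of those 6, 4 stood lower. For ΔOM-LZ against MIG it was 1 of 80 (1.25%, against 3.96%), and that gene stood higher. CALM-AF10 against ΔOM-LZ had 4 of 80 (5%), all lower, against 2.26% of probe sets in either direction and 0.658% lower. The minimal fusion against CALM-AF10 had 3 of 80 (3.75%), all lower, against 1.8% in either direction and 1.2% lower.

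Gata1 and Gata2, the GATA factors of erythroid, megakaryocyte, mast cell and basophil lineages, correlated with the mean of the 9 genes at 0.96 and 0.94 over 12 arrays. Gata1 values were 7.72, 8.07 and 9.19 on MIG replicates 1, 2 and 3, 8.40, 7.45 and 7.67 on those of CALM-AF10, 9.36, 8.03 and 7.98 on those of ΔOM-LZ and 8.16, 7.10 and 7.51 on those of the minimal fusion. MIG replicate 3 and ΔOM-LZ replicate 1, the highest arrays of the members, were also the highest here. The minimal fusion difference of Gata1 and Gata2 from MIG was −0.74 and −0.51. Mitf, a transcription factor needed for mast cells, stood at −1.22 (limma adjusted p = 0.368) with r = 0.87, and Kit, the stem cell factor receptor of mast cells and progenitors, at −0.32 with r = 0.81. Slc18a2, which loads histamine into granules, stood at −0.75, Fcer1g, the FcεRI gamma chain, at −0.56, Csf2rb, the shared beta chain of IL-3 receptors, at −0.42 and Il3ra, an IL-3 receptor chain, at −0.21. Il1rap, the partner chain of the IL-33 receptor, stood at −0.30 and Cebpa, a granulocyte factor, at −0.15, with r of −0.10 and 0.24. By likeness over the 12 arrays, among 3333 genes spanning at least 1 log2 unit, the 10 closest to the mean of the members were Furin (r = 0.98), Id2, Gpr174, Car8, Nrip3 and Fam110c (0.97 each), and Ptprg, Hs6st2, Dgki and Gata1 (0.96 each).

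Genes next to the members on the chromosome were also read. In RefSeq order the tryptase stretch runs from Prss34 through Prss28 and Prss29 to Tpsab1 and Tpsb2. Prss28 and Prss29, serine protease genes between them, spanned 0.41 and 0.46 log2 units over the 12 arrays, with r of −0.25 and −0.28 to the member mean. In the chymase stretch, which holds Cma1 and Mcpt8, Mcpt4, a connective tissue mast cell chymase gene, spanned 5.06 log2 units with r = 0.91 and Mcpt2 5.46 with r = 0.68. The Mcpt4 range and r rest on MIG replicate 3 (9.71), CALM-AF10 replicate 1 (7.86) and ΔOM-LZ replicate 1 (6.96). On the other arrays Mcpt4 lay at 4.65 to 5.46, below the array medians. Mcpt1, another mucosal protease gene, spanned 1.23 with r = −0.09. On every array Prss28 (5.48 to 5.89), Prss29 (5.77 to 6.23) and Mcpt1 (4.47 to 5.70) lay below the array medians, with no detection call, so their small ranges and r may be those of background signal and say nothing of whether these genes follow the members. These neighbours were named by position, a choice made after their values were seen.

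Of the markers of other blood lineages, those of megakaryocytes and erythroid cells followed the members most closely across arrays. Megakaryocyte markers (9 of 13 measured) all lay below 0 in the minimal fusion against MIG, with a median of −0.96, Ppbp, a platelet chemokine gene, at −3.59 and Pf4, platelet factor 4, at −1.57. Their summed log2 level ran from 11.70 to 13.34 on MIG arrays and from 10.95 to 11.57 on the minimal fusion, and over the 12 arrays the list level correlated with the members at 0.83. Erythroid markers (6 of 11 measured, 4 below 0, median −0.24) correlated at 0.94, with summed levels of 9.84 to 11.15 on MIG and 9.65 to 10.06 on the minimal fusion. Monocyte markers (9 of 11 measured, all below 0, median −0.93) correlated at 0.33 and ran from 12.67 to 14.12 on MIG and from 12.24 to 12.47 on the minimal fusion. By limma no megakaryocyte, erythroid or monocyte marker was called in the minimal fusion against MIG (smallest adjusted p of 0.415, 0.760 and 0.140). The part of these markers in the member differences was not tested. Eosinophil markers, which also include granule genes, correlated at 0.29 (7 of 9 measured), with Epx, eosinophil peroxidase, at −0.55 and Prg2, major basic protein, at −0.72. Epx and Prg2 were highest on MIG replicate 3 (7.70 and 7.84), and their minimal fusion arrays overlapped MIG. Those minimal fusion values (5.94 to 6.51 and 5.99 to 6.53) lay below the array medians, with no detection call. No eosinophil marker was called there (smallest limma adjusted p = 0.602). Neutrophil markers had r = −0.29, with 9 of 12 below 0 in the minimal fusion against MIG (median −0.49). Progenitor markers (9 of 10 measured) had r = −0.11 and stood on the other side: 8 of 9 lay above 0 against MIG (median 0.55), and all 9 against ΔOM-LZ (median 0.65). Their summed level ran from 12.68 to 13.13 on MIG arrays and from 13.16 to 13.41 on the minimal fusion. One of them, the costimulatory receptor gene Cd27, rose against MIG by 1.93 (limma adjusted p = 0.0359). Over the 12 arrays B cell markers had r = −0.25, T, NK and innate lymphoid markers 0.63 and fibroblast and producer-line markers −0.40, with medians near 0 against MIG (0.012, −0.00076 and 0.013).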

How the data were processed

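Affymetrix arrays of 12 samples were deposited by the authors as log2 values. The submitters' processing notes name Affymetrix Expression Console. Its version, summarization and normalization are not stated in those notes or the labels, and no further normalization was applied. Array medians ran from 6.581 to 6.686. Of 35556 probe sets, 23410 had gene symbols and were tested. The number of arrays limits precision.

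Differences were fitted with limma 3.58.1 in R 4.3.3 (lmFit, eBayes) with 1 mean per construct and 8 residual degrees of freedom. P-values were two-sided and Benjamini-Hochberg adjusted over 23410 probe sets, with a threshold of 0.05. Non-overlapping means that every array of one group lay on one side of the other. Replicate numbers paired arrays where same-numbered deviations correlated above 0.1 in all 3 pairs. This held for CALM-AF10 against ΔOM-LZ only, from the data and not the labels.

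All 10 members were named. Of each other list, genes with the 2 highest and 2 lowest minimal fusion differences from MIG could be named, with fixed extra genes and the 10 most like genes. Members and lists were chosen with earlier results of these data known. The fit was tested on simulated data. Quantile normalization, median centring, trend and robust variance, intensity filters, the probe sets tested, a replicate block and leaving out each array were tried.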

Additional observations from a re-analysis of the deposited data

How the results depend on the processing

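With 3 arrays per construct and an unknown normalization, single arrays moved the members more than the processing did. Members called stayed at 0 in every setting of the 12-array fit, a replicate block over all 12 arrays included, and was 1 in the paired fit of CALM-AF10 against ΔOM-LZ. There Prss34 (−1.66) had an adjusted p of 0.238 with all probe sets, and −1.69 to −1.63 (0.279 to 0.360) without 1 replicate number. Alternatives of that paired fit were chosen after seeing the data. The median difference, without 1 array, ran from −1.51 to −0.67 for the minimal fusion against MIG, −1.30 to −0.05 for CALM-AF10 against MIG, −0.42 to 0.53 for ΔOM-LZ against MIG, −1.005 to −0.14 for CALM-AF10 against ΔOM-LZ, −1.43 to −0.67 for the minimal fusion against ΔOM-LZ and −0.76 to −0.29 against CALM-AF10.

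Without 1 array, some differences turned sign. For CALM-AF10 against MIG the ranges were −1.76 to 0.41 for Tpsb2, −1.37 to 1.17 for Tpsab1, −1.64 to 0.43 for Cma1 and −0.32 to 0.0101 for Cpa3. For ΔOM-LZ against MIG they were −1.81 to 0.34 for Tpsb2, −1.99 to 0.53 for Tpsab1, −1.63 to 0.41 for Cma1, −0.78 to 0.44 for Fcer1a, −0.42 to 0.81 for Ms4a2, −0.0885 to 0.18 for Cpa3 and −0.074 to 1.01 for Hdc. For CALM-AF10 against ΔOM-LZ they were −0.94 to 1.06 for Tpsb2, −0.46 to 1.58 for Tpsab1 and −0.78 to 0.70 for Cma1. For the minimal fusion against CALM-AF10 they were −0.51 to 0.20 for Ms4a2 and −0.23 to 0.26 for Mcpt8.

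Counts over all probe sets also moved. For the minimal fusion against MIG, 8 became 0 with the groups fitted alone, 20 with all probe sets, 1 with the replicate block and 1 to 9 without 1 array. Against ΔOM-LZ, 4 became 0, 17, 3 and 1 to 5, with 2 after median centring and 8 with trend and robust variance. Against CALM-AF10, 1 became 0, 3, 0 and 0 to 1.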

Other observations

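Among the other protease genes, Ctsg stood apart from the members. Mcpt2 varied with their mean (r = 0.68) but differed in the order of arrays within CALM-AF10, within ΔOM-LZ and within the minimal fusion. Ctsg, encoding cathepsin G, a protease of neutrophil precursors and of some mast cells, ran against the 9 members over the 12 arrays (r = −0.87). Its log2 values were 12.68, 12.59 and 12.26 on MIG replicates 1, 2 and 3, 12.15, 12.76 and 12.50 on those of CALM-AF10, 11.93, 12.68 and 12.60 on those of ΔOM-LZ and 12.61, 12.72 and 12.60 on those of the minimal fusion. ΔOM-LZ replicate 1, CALM-AF10 replicate 1 and MIG replicate 3, the arrays highest in the tryptases, were the lowest for Ctsg, within a range of 0.82. Mcpt2, the mucosal protease gene, had values of 8.02, 8.85 and 10.69 on MIG replicates 1, 2 and 3, 8.63, 8.01 and 6.96 on those of CALM-AF10, 8.39, 9.99 and 7.28 on those of ΔOM-LZ and 5.23, 6.58 and 5.77 on those of the minimal fusion. All minimal fusion arrays were lower than every other array, and the highest ΔOM-LZ array was replicate 2, where the members were highest on replicate 1.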
